A study of Homo sapiens with 8 samples.

Results

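The genes described here are 45 members of the G1/S transition and DNA replication machinery, taken by symbol from a fixed list and read in the human osteosarcoma line MNNG/HOS. The members were picked by symbol, with earlier results of these data known. Measured intensities enter through the filter and the choice of probe. For each gene the brightest probe stood for it, provided that it exceeded an intensity of 20, the lowest value in the deposited table, on at least 2 of the 8 arrays. By that rule 43 of the 45 members entered the tests, among 12759 genes in all. E2F8 and CCNE2 lay at 20 on all 8 arrays and were not tested. Cells received JQ1 together with rapamycin, JQ1 alone, rapamycin alone, or the solvent DMSO, with 2 arrays per group. The labelled concentrations are 7.5 mM (JQ1) and 12.5 nM (rapamycin), the same in the combination as alone; the unit of the JQ1 concentration could not be checked. All 4 groups are the same line, MNNG/HOS, a chemically transformed derivative of HOS cells. No label states how long the cells were treated, or that replicates were independent cultures, and p-values therefore reflect array-to-array spread that could be technical. The series' title asks about synergy between the drugs.

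JQ1 is a BET bromodomain inhibitor, which takes these readers of histone acetylation off chromatin. Rapamycin blocks mTORC1, a kinase complex that drives cell growth. In proliferating cells, cyclin E with its kinase and the phosphatase CDC25A push cells out of G1, and E2F transcription factors then switch on the genes that copy DNA. In G1, the origin recognition complex, CDC6 and CDT1 load the MCM helicase ring onto origins. In S phase, CDC45 and the GINS complex turn that ring into an active helicase, and polymerases, the sliding clamp and its loader copy the strands from nucleotides made by dedicated enzymes. In a bulk RNA sample, a smaller share of cells in S phase and less RNA per cell cannot be told apart.

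Mean intensity per array was 455.5 to 481.6. Of 10 osteoblast and mesenchymal markers, 4 exceeded 20 on all arrays, among them VIM and COL1A1, whereas SP7, ALPL and COL1A2, which mark bone-forming cells, lay at 20 throughout. PTPRC, CD3E and HBB (blood cells), KRT19 and CDH1 (epithelium) and CDH5, VWF and KDR (endothelium) also lay at 20 on all arrays. Other markers of those lists did not: CD68 read 697 to 1696, CD14 28.8 to 476, KRT8 837 to 1226, KRT18 216 to 422 and EPCAM 147 to 225. RUNX2, a bone transcription factor, lay at 20 on both combination and both JQ1 arrays, and read 95.7 and 75.5 under rapamycin and 96.5 and 111 under DMSO. The part of these markers in the results was not tested. The deposited non-normalized table names the arrays differently. By rank correlation over 14640 probes, each of its columns matched 1 array of the value table at 0.997 or more, while no other pair passed 0.9795, and 6 of the 8 matches carry another group or replicate name. In its header, the 4 arrays that the value table places under JQ1 or the combination are the second replicates of all 4 groups. The results below use the value table, which the sample records carry. Changes under the header's names come from the non-normalized signals, so that they differ in processing as well as in names. Changes under the header's names stand beside the members called without the replicate block and beside CCNE1, and those of the other members called in the combination with the block stand with the differences between replicates.

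Most members had a negative log2 change with each treatment. The median log2 change of the 43 members was -0.44 in combination-treated cells against DMSO, with 34 of 43 negative. It was -0.17 for JQ1 against DMSO, with 30 negative, and -0.31 for rapamycin against DMSO, with 35 negative. Over all 12759 genes the medians were between -0.01 and 0.00, and 51.4% to 52.2% of genes were negative. These 3 comparisons share the DMSO arrays. Taken within replicate 1 and within replicate 2, the median was -0.45 and -0.41 for the combination, -0.13 and -0.26 for JQ1, and -0.34 and -0.51 for rapamycin, and 31, 25 and 29 members were negative in both. These medians moved when 1 array was left out. The combination's median ran from -0.65 without DMSO replicate 2 to -0.28 without combination replicate 2. That of JQ1 ran from -0.46 without JQ1 replicate 1 and -0.35 without DMSO replicate 2 to 0.01 without DMSO replicate 1 and 0.11 without JQ1 replicate 2, so that its sign rests on single arrays. That of rapamycin ran from -0.54 without rapamycin replicate 1 to -0.15 without rapamycin replicate 2.

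Few single members passed the test, which was limma's moderated test with Benjamini-Hochberg adjustment over all 12759 genes and a threshold of 0.05. In the combination against DMSO, 4 of 43 members fell, E2F2, CHAF1A, GINS3 and MCM3, beside 4.25% of all genes called lower. In JQ1 against DMSO, 1 member fell, E2F2, beside 1.77% of all genes. In rapamycin against DMSO no member was called, beside 0.0235% of all genes; at an unadjusted p under 0.05 it was 8 of 43 members beside 9.89% of all genes. Arrays with the same replicate number deviated together under the value table's names, and a replicate block changed these counts. Calls with the block rest on those names. With the block, 14 members fell in the combination beside 11.2% of all genes. Under JQ1, E2F2, GINS2, RFC4 and CHAF1A fell, 4 members beside 6.7% of all genes, and CCNE1 rose, 1 member beside 4.48%. Under rapamycin, 1 fell, CDC25A, beside 0.11% of all genes.

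**Figure D1:**
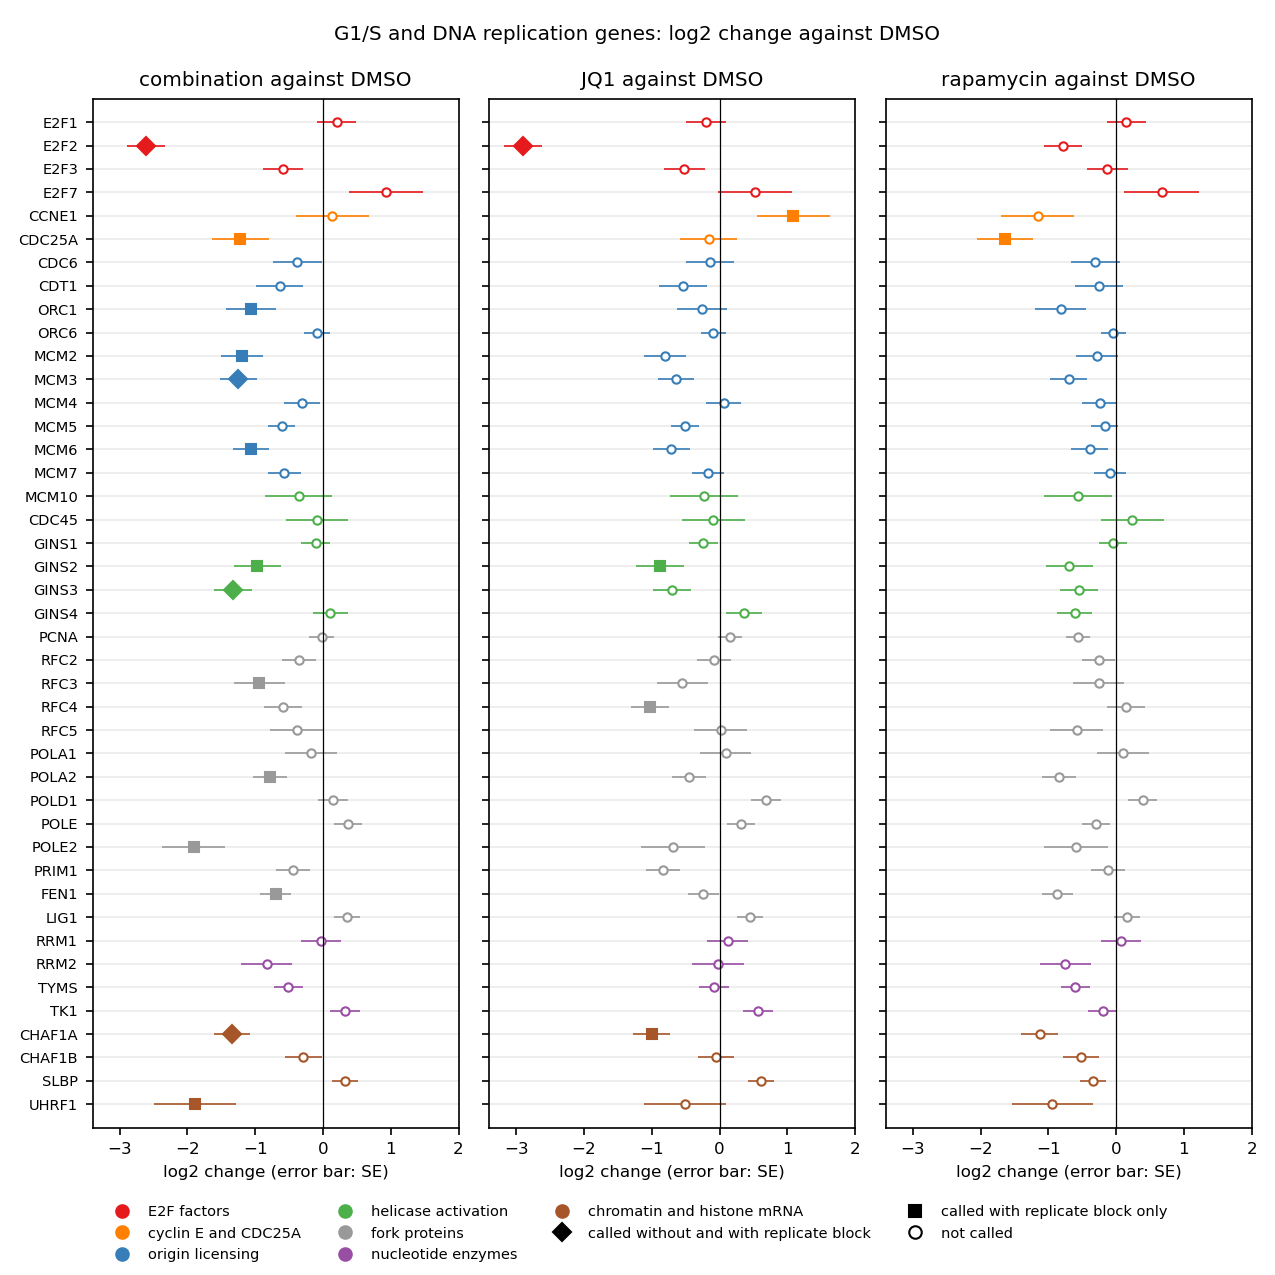
Log2 change of each of the 43 members (rows, coloured by role) in the combination, JQ1 and rapamycin against DMSO; points are differences of group means over 2 arrays each and bars are standard errors. E2F2 sits at -2.61 in the combination and -2.90 under JQ1, and 34 of 43 points lie left of 0 in the combination panel.

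Among the E2F factors, E2F2 was low on every array with JQ1. E2F2, an activator of S-phase genes, read 39.9 and 43.8 in combination-treated cells, 34.1 and 34.3 under JQ1, 191 and 114 under rapamycin, and 228 and 285 under DMSO. The 4 arrays with JQ1 were all below the 4 without it. At 34.1 to 43.8 they lay near the lowest value of the table. The size of any E2F2 change that uses these arrays is therefore uncertain. The E2F2 log2 change was -2.61 in the combination (SE 0.28, adjusted p 0.00726) and -2.90 under JQ1 (SE 0.28, adjusted p 0.00981). Under rapamycin it was -0.79 (SE 0.28, adjusted p 0.402), so that this difference did not pass. The combination was also lower than rapamycin alone (log2 change -1.82, SE 0.28, adjusted p 0.0288), where 1 member fell beside 1.68% of all genes. That call was lost with any 1 of the 8 arrays left out (adjusted p 0.0714 to 0.147), and under the header's names the change is -0.44 (SE 0.99, adjusted p 0.999). Leaving out either DMSO array or combination replicate 1 raised the adjusted p of the combination's fall to between 0.061 and 0.0729, and leaving out any JQ1 or DMSO array raised that of the fall under JQ1 to between 0.0768 and 0.115. Under the header's names the 4 low arrays are split over the groups, and the E2F2 change under JQ1 is -0.23 (SE 0.99, adjusted p 0.985) and in the combination -0.52 (SE 0.99, adjusted p 0.845).

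The other E2F factors did not pass in any comparison without the block. E2F3, a second activator, read 584 and 439 in the combination, 657 and 433 under JQ1, 841 and 580.4 under rapamycin, and 794 and 734 under DMSO. With the block it fell with JQ1 averaged over rapamycin (log2 change -0.49, adjusted p 0.0382). E2F7, an atypical E2F that represses E2F targets, read 1220 and 531 in the combination, 859 and 425 under JQ1, 1003 and 449 under rapamycin, and 439.6 and 403 under DMSO. The arrays of the combination and of rapamycin lay above those of DMSO and those of JQ1 overlapped them, but the 2 arrays of each drug group differed by more than a factor of 2, and the change in the combination was 0.93 (SE 0.55, adjusted p 0.374). E2F1, another activator, ran from 73.5 to 128 over the 8 arrays, with a change of 0.20 in the combination (SE 0.29, adjusted p 0.75).

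CDC25A was low on the arrays with rapamycin. CDC25A, the phosphatase that removes inhibitory phosphates from cyclin-dependent kinases, read 285 and 209 in the combination, 711 and 366 under JQ1, 244 and 136 under rapamycin, and 671 and 481 under DMSO. The 4 arrays with rapamycin were all below the 4 without it. Its change was -1.64 under rapamycin (SE 0.42), with an adjusted p of 0.284 without the block and 0.037 with it. In the combination it was -1.22 (SE 0.42), with an adjusted p of 0.138 without the block and 0.00872 with it, and under JQ1 it was -0.16 (SE 0.42, adjusted p 0.921). A second CDC25A probe gave -1.27 under rapamycin and -0.86 in the combination.

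CCNE1, which encodes cyclin E1, was high with JQ1 and low with rapamycin. It read 237 and 149 in the combination, 468 and 282 under JQ1, 120.4 and 48.5 under rapamycin, and 235 and 123 under DMSO. Within each replicate number, the order was JQ1, then the combination and DMSO close together, then rapamycin. Its change was 1.09 under JQ1 against DMSO (SE 0.54, adjusted p 0.352 without the block and 0.0218 with it). Averaged over the other drug, CCNE1 stood at 1.19 with JQ1 (SE 0.38, adjusted p 0.0942 without the block and 0.00243 with it) and at -1.05 with rapamycin (SE 0.38, adjusted p 0.286 without the block and 0.0275 with it). The combination stood at 0.14 against DMSO (SE 0.54, adjusted p 0.923). Against rapamycin alone the combination was higher by 1.30 (SE 0.54, adjusted p 0.262 without the block and 0.0142 with it). The sign with JQ1 turns under the header's names, to -1.06 under JQ1 (SE 0.53, adjusted p 0.678) and -0.94 with JQ1 averaged. The combination is at -1.82 there and at -0.83 against rapamycin, none called. Rapamycin averaged is at -0.87 there. That comparison splits the arrays as the value table's replicate numbers do, and CCNE1 differed by -0.91 between replicates 2 and 1.

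Origin licensing genes were negative throughout in the combination. All 10 members had a negative log2 change against DMSO in both replicates, with a median of -0.63 and a range of -1.25 to -0.09. MCM3 fell without the block, and with it ORC1, MCM2 and MCM6 as well. MCM3, a subunit of the helicase ring, read 1425 and 1243 in the combination, 2502 and 1638 under JQ1, 2210 and 1726 under rapamycin, and 3380.0 and 2962 under DMSO. The combination arrays were below all others, and both single drugs were below DMSO. The change was -1.25 in the combination (SE 0.27, adjusted p 0.0394), -0.64 under JQ1 (SE 0.27, adjusted p 0.263) and -0.70 under rapamycin (SE 0.27, adjusted p 0.442). A second MCM3 probe gave -1.41, -0.45 and -1.00 in the same order. Without either DMSO array, either combination array or either rapamycin array, the MCM3 adjusted p lay between 0.0736 and 0.191. Under the header's names its change was -1.16 in the combination (SE 0.34, adjusted p 0.14).

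MCM2 and MCM6, ring subunits too, were lowest in the combination by group mean. MCM2 read 276 and 274 in the combination, 476 and 273 under JQ1, 620.2 and 431 under rapamycin, and 649 and 607 under DMSO, a change of -1.19 in the combination (SE 0.31, adjusted p 0.068 without the block and 0.0158 with it). MCM6 read 1219 and 905 in the combination, 1569 and 1154 under JQ1, 1964 and 1432 under rapamycin, and 2173 and 2222 under DMSO, a change of -1.06 (SE 0.27, adjusted p 0.0623 without the block and 0.0125 with it). ORC1, the largest subunit of the origin recognition complex, read 111 and 88.0 in the combination, 239.7 and 124 under JQ1, 136 and 101 under rapamycin, and 248 and 172 under DMSO, a change of -1.06 (SE 0.37, adjusted p 0.138 without the block and 0.0145 with it). ORC1 also fell with rapamycin averaged over JQ1 with the block (log2 change -0.81, adjusted p 0.0359). MCM5 and MCM7 stood at -0.61 and -0.57 in the combination and MCM4 at -0.31, none of them called. CDT1, the loading factor, stood at -0.64 (SE 0.35, adjusted p 0.335). CDC6, the other loading factor, read only 26.3 to 51.9 and so lay near the lowest value of the table. ORC6 was the brightest licensing gene at 19233 to 23478, with a change of -0.09, but its second probe, at 392 to 1241, gave 0.66 in the combination and 0.58 under JQ1, so that its 2 probes disagree in sign.

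Helicase activation genes fell in part. GINS3, a subunit of the GINS complex, read 302 and 276 in the combination, 532 and 374 under JQ1, 587 and 419 under rapamycin, and 829.8 and 636 under DMSO. The combination arrays were the lowest and the DMSO arrays the highest. The change was -1.33 in the combination (SE 0.28, adjusted p 0.037), -0.70 under JQ1 (SE 0.28, adjusted p 0.24) and -0.55 under rapamycin (SE 0.28, adjusted p 0.605). With any 1 of the 8 arrays left out, its adjusted p in the combination was 0.0555 to 0.191; under the header's names the change was -1.19 (SE 0.42, adjusted p 0.197). GINS2, a partner in that complex, read 2191 and 1405 in the combination, 2108 and 1656 under JQ1, 2623 and 1712 under rapamycin, and 4237 and 2773 under DMSO. Its change was -0.97 in the combination (adjusted p 0.152 without the block and 0.0114 with it) and -0.88 under JQ1 (adjusted p 0.248 without the block and 0.0237 with it). GINS4 stood at 0.11, CDC45 at -0.09 and MCM10 at -0.36 in the combination, none called. GINS1 exceeded 20 on 4 arrays only and reached 25.9.

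**Figure D2:**
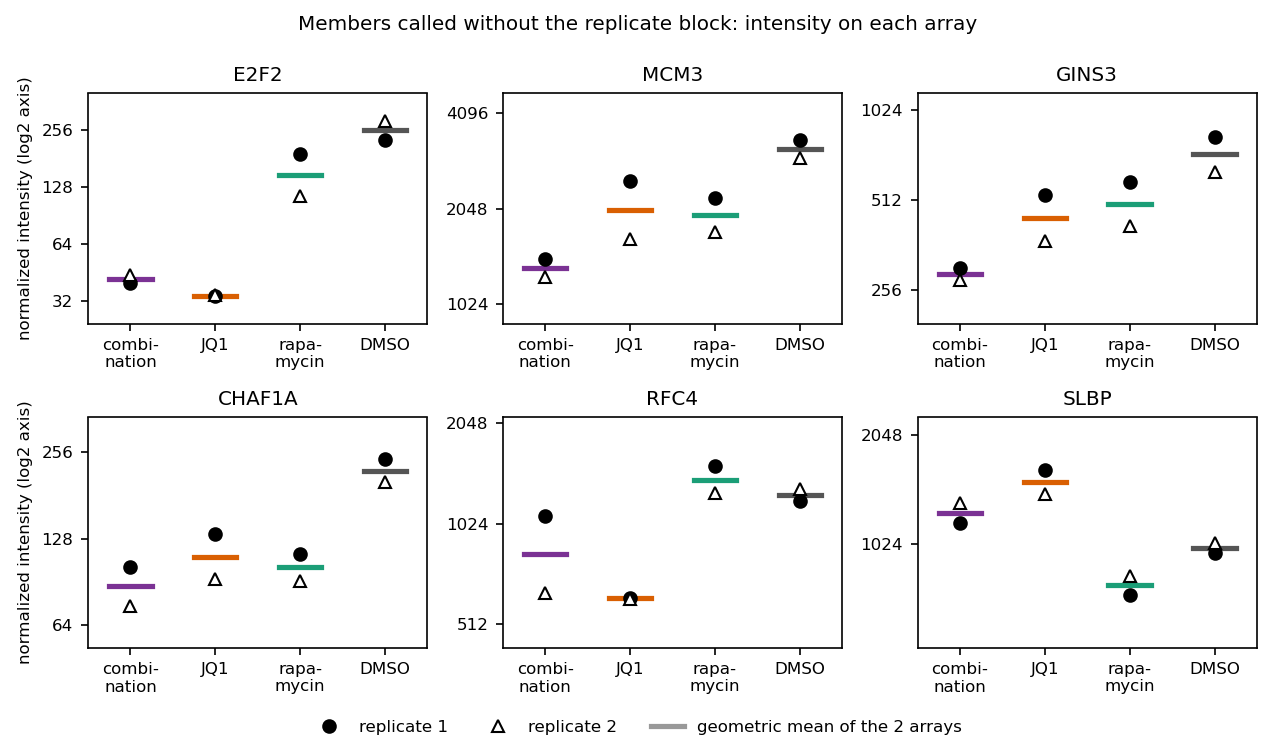
Normalized intensity (log2 axis) on each of the 8 arrays for the 6 members called without the replicate block, by group; circles are replicate 1, triangles replicate 2 and bars geometric means. E2F2 lies between 34.1 and 43.8 on the 4 arrays with JQ1 and between 114 and 285 on the others, and MCM3 and GINS3 are lowest in the combination and highest under DMSO.

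Fork proteins were mixed. Of 13 members, 10 were negative in the combination, with a median of -0.39, and none was called without the block, with 4 of 13 at an unadjusted p under 0.05 beside 23.7% of all genes. With the block RFC3, POLA2, POLE2 and FEN1 fell, 4 of 13 beside the 11.2% of all genes given above. POLE2, the second subunit of the leading-strand polymerase, read 255 and 162 in the combination, 701 and 318 under JQ1, 689 and 372 under rapamycin, and 869.5 and 669 under DMSO. The combination arrays were the lowest, and the change was -1.91 (SE 0.47, adjusted p 0.0591 without the block and 0.00312 with it). POLE, the catalytic subunit of that polymerase, read 243 and 183 in the combination, 204 and 204 under JQ1, 128 and 138 under rapamycin, and 173 and 155 under DMSO, a change of 0.37 in the combination (SE 0.21, adjusted p 0.353). FEN1, which trims flaps on the lagging strand, read 1991 and 1664 in the combination, 2905 and 2151 under JQ1, 1677 and 1564 under rapamycin, and 3248 and 2684 under DMSO. Its arrays with rapamycin were all below those without, and the change averaged over JQ1 was -0.66 (SE 0.16, adjusted p 0.16 without the block and 0.0395 with it). POLA2, a subunit of the priming polymerase, stood at -0.84 under rapamycin (SE 0.25, adjusted p 0.325) and at -0.78 in the combination (SE 0.25, adjusted p 0.112 without the block and 0.0453 with it).

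RFC4, a clamp loader subunit, was low with JQ1. It read 1081 and 637 in the combination, 612 and 611 under JQ1, 1517 and 1264 under rapamycin, and 1197 and 1303 under DMSO. Its change was -1.03 under JQ1 (SE 0.28, adjusted p 0.108 without the block and 0.041 with it), and -0.88 for JQ1 averaged over rapamycin (SE 0.20, adjusted p 0.0329). A second RFC4 probe gave -0.77 for each. The call with JQ1 averaged was lost in 7 of the 8 fits that leave out 1 array, remaining only without combination replicate 1 (adjusted p 0.0509 to 0.119 in the 7). The RFC4 sign turns under the header's names, to 0.48 under JQ1 and 0.20 with JQ1 averaged. PRIM1, the primase, read 1181 and 792 in the combination, 680.2 and 793 under JQ1, 1228 and 1189 under rapamycin, and 1428 and 1200.0 under DMSO, a change of -0.83 under JQ1 (SE 0.25, adjusted p 0.133). The brightest RFC3 probe stood at -0.94 in the combination (adjusted p 0.196 without the block and 0.0316 with it), and 1 of its 2 other probes gave 1.14 in the combination and 1.89 under JQ1. That probe read 152 and 116 in the combination, 298 and 166 under JQ1, 43.1 and 50.7 under rapamycin, and 73.0 and 49.4 under DMSO, so that the RFC3 direction depends on the probe.

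PCNA, the sliding clamp, has 2 probes that differ as well. The brighter read 2821 and 3130.1 in the combination, 3255 and 3455 under JQ1, 2074 and 2028 under rapamycin, and 2888 and 3157 under DMSO, with changes of -0.02, 0.15 and -0.56 against DMSO, none called. The dimmer gave -0.99, -1.32 and -0.66, from readings of 109 and 98.2 in the combination, 66.2 and 103 under JQ1, 147 and 116 under rapamycin, and 224 and 189.5 under DMSO. POLD1, the catalytic subunit of the lagging-strand polymerase, read 169 and 165 in the combination, 268 and 216 under JQ1, 199 and 193 under rapamycin, and 172 and 131 under DMSO, a change of 0.68 under JQ1 (SE 0.22, adjusted p 0.154). RFC2, RFC5 and POLA1 stood between -0.39 and -0.18 in the combination and LIG1, the ligase that seals lagging-strand fragments, at 0.35, none called.

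No nucleotide enzyme was called against DMSO, with or without the block, and at an unadjusted p under 0.05 without it were 0 of 4 in the combination beside 23.7% of all genes, 1 under JQ1 beside 18.1%, and 1 under rapamycin beside 9.89%. RRM2, the regulated subunit of ribonucleotide reductase, read 343 and 363 in the combination, 907 and 418 under JQ1, 389.5 and 356 under rapamycin, and 774 and 506 under DMSO, a change of -0.83 in the combination (SE 0.38, adjusted p 0.254). TYMS, which makes thymidylate, stood at -0.51 (SE 0.22, adjusted p 0.219), and RRM1, the large subunit of the reductase, at -0.03. TK1, which salvages thymidine, read 1117 and 892 in the combination, 1199.7 and 1176 under JQ1, 747 and 648 under rapamycin, and 704 and 908 under DMSO, and rose with the block under JQ1 averaged over rapamycin, by 0.55 (SE 0.16, adjusted p 0.0712 without the block and 0.04 with it).

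CHAF1A fell and SLBP rose among the chromatin and histone mRNA genes. CHAF1A, the large subunit of the histone chaperone that follows the fork, read 102 and 74.5 in the combination, 132 and 92.2 under JQ1, 113 and 91.2 under rapamycin, and 242 and 202 under DMSO. All 6 drug-treated arrays were below both DMSO arrays. The change was -1.34 in the combination (SE 0.27, adjusted p 0.0356), -1.00 under JQ1 (SE 0.27, adjusted p 0.112 without the block and 0.0157 with it) and -1.13 under rapamycin (SE 0.27, adjusted p 0.261 without the block and 0.0523 with it). With any 1 of the 8 arrays left out, its adjusted p in the combination was 0.052 to 0.185; under the header's names the change was -1.17 (SE 0.30, adjusted p 0.106). CHAF1B, its partner, stood at -0.29 in the combination (SE 0.27, adjusted p 0.581). UHRF1, which binds newly copied, half-methylated DNA, read 466 and 342 in the combination, 1793 and 609 under JQ1, 1094 and 545 under rapamycin, and 2060 and 1068 under DMSO. The combination arrays were the lowest, and the change was -1.89 (SE 0.60, adjusted p 0.109 without the block and 0.00545 with it). SLBP, which binds the stem-loop of histone mRNAs, read 1174 and 1329 in the combination, 1637 and 1414 under JQ1, 744 and 836 under rapamycin, and 967 and 1031 under DMSO. Its 4 arrays with JQ1 were all above the 4 without, a change of 0.64 averaged over rapamycin (SE 0.14, adjusted p 0.0296), and a second probe also gave 0.64. That call was lost with any 1 of the 8 arrays left out (adjusted p 0.055 to 0.09), and under the header's names the SLBP sign turns, to -0.37.

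The promoters of the 4 members that fell in the combination are shown because E2F factors act at such sequences and members of the list sat lower together. Each runs from 250 bases before to 50 after the gene's start, 5′ to 3′ on the gene's strand, from RefSeq on GRCh38.p14. E2F2 is on the minus strand at chr1:23531184-23531483, MCM3 on the minus strand at chr6:52284693-52284992, GINS3 on the plus strand at chr16:58392221-58392520 and CHAF1A on the plus strand at chr19:4402390-4402689. Capitals mark matches on either strand to any of 4 E2F motifs, TTTCCCGC, TTTCGCGC, TTTGCCGC and TTTGGCGC, which can overlap each other.
E2F2: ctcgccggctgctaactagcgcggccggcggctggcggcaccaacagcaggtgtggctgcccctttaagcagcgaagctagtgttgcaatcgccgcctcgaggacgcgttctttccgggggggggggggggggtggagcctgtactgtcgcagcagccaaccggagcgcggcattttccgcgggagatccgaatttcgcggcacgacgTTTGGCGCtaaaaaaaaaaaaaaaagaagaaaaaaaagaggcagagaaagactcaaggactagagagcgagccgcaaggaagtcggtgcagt
MCM3: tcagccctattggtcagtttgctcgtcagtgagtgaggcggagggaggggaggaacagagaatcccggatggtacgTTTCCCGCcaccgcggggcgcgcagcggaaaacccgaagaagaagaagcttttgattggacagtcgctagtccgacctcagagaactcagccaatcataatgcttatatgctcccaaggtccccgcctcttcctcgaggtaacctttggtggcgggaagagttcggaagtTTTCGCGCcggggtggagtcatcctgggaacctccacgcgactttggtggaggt
GINS3: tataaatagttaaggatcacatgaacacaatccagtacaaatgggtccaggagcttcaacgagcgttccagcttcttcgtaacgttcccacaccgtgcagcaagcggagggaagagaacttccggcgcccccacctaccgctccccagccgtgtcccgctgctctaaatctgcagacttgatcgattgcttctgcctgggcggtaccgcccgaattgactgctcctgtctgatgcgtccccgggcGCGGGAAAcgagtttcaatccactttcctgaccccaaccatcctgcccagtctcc
CHAF1A: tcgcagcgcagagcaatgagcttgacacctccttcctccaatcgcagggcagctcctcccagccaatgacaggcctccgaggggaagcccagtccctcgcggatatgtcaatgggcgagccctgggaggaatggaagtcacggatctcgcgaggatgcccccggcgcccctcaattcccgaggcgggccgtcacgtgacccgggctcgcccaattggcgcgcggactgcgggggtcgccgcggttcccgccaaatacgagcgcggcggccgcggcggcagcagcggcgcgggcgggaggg
E2F2 has 1 match, starting at -42 from the gene's start, MCM3 has 2, at -174 and -4, GINS3 has 1, at -5, and CHAF1A has none of these letters in the window.

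Promoters were found for 40 of the 45 members; E2F8, CCNE2, MCM4, MCM5 and GINS4 have none in the table used. An E2F motif was in 22 of the 40, or 55%, against 3.33% of 27305 promoters of the same length and 5.17% of those of 10150 genes tested here. The motif was in 6 of 8 origin licensing promoters and in 7 of 13 of the fork proteins. Of the 14 members that fell in the combination with the block, 11 had a match, as did 11 of the 26 other tested members with a promoter. The 22 members with a match had a median log2 change of -0.71 in the combination, -0.48 under JQ1 and -0.35 under rapamycin. The 18 without had -0.32, -0.07 and -0.30. CCAAT, either strand, was in 57.5% of member promoters, against 35.7% of all and 37.3% of those of the genes tested. TTTGAA, the core of the cell cycle homology region, was in 5%, against 15.4% of all and 10.5% of those of the genes tested. A match describes letters only, not a bound site. The list holds genes of the kind that E2F factors switch on. A high share of E2F motifs therefore comes with the choice of the list and is no result of these arrays. Whether E2F factors had a part in the changes was not tested.

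The 2 by 2 layout allowed the effect of each drug to be averaged over the other. With JQ1, 2 members fell, E2F2 (log2 change -2.36, SE 0.20, adjusted p 0.00177) and RFC4, beside 7.38% of all genes called lower, and 1 rose, SLBP, beside 4.37% called higher. With the block, 14 fell beside 13.8% of all genes and 5 rose beside 9.55%. The 5 were CCNE1, GINS4, POLE, TK1 and SLBP, and the 14 included MCM2, at -0.85 (SE 0.22, adjusted p 0.0504 without the block and 0.0118 with it). With rapamycin, no member was called without the block, beside 0.0941% of all genes; at an unadjusted p under 0.05 it was 13 of 43 members beside 13.9% of all genes. With the block 8 fell, beside 1.83% of all genes. They were CCNE1, CDC25A, ORC1, MCM3, POLE2, FEN1, CHAF1A and UHRF1, from -0.65 for MCM3 to -1.35 for CDC25A. MCM3, POLE2, CHAF1A and UHRF1 thus fell in both averaged comparisons with the block, which share the combination arrays. Of these, only CHAF1A was called with the block under a single drug against DMSO, and that under JQ1. The median member change was -0.10 with JQ1 (-0.24 to -0.01 with 1 array left out) and -0.31 with rapamycin (-0.44 to -0.19).

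**Figure D3:**
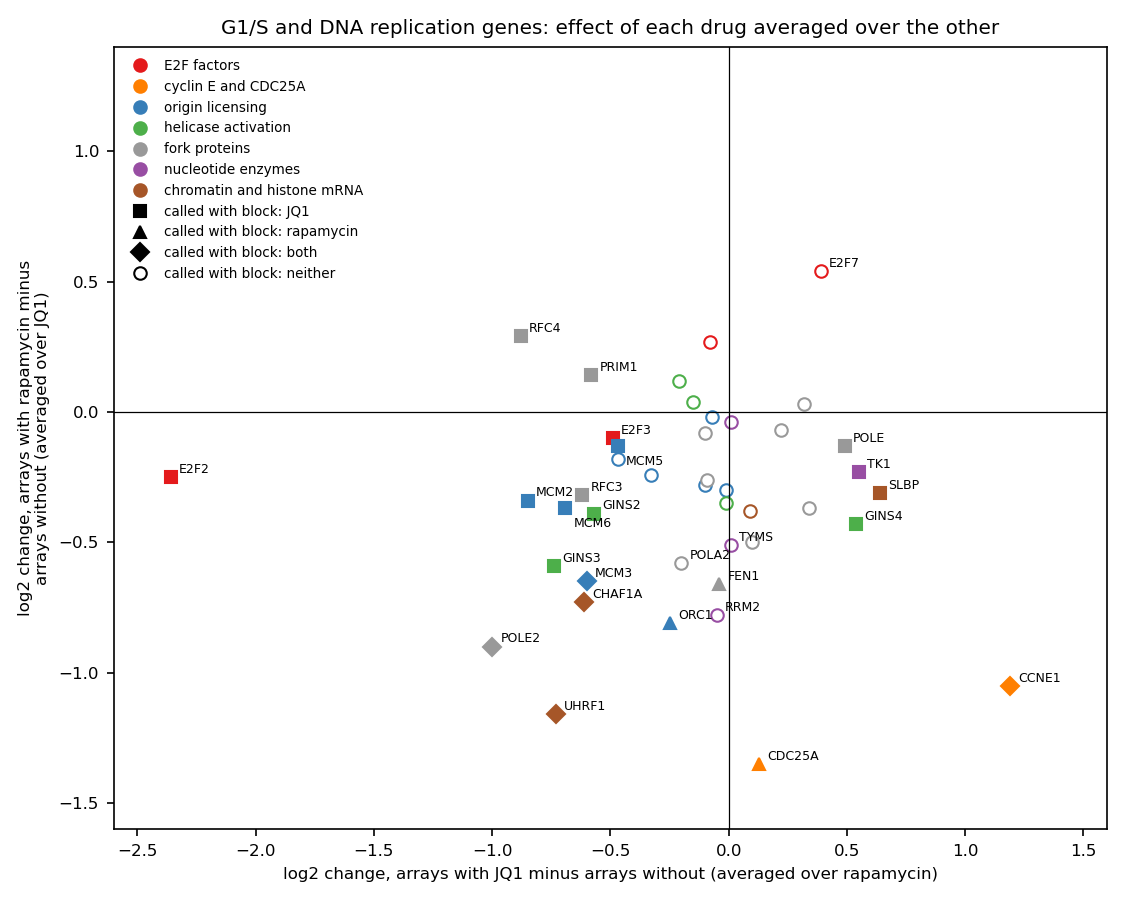
Log2 change of each member with JQ1, averaged over rapamycin (horizontal axis), against that with rapamycin, averaged over JQ1 (vertical axis); colours give roles and filled shapes calls with the replicate block. CCNE1 sits at 1.19 and -1.05, E2F2 at -2.36 on the JQ1 axis, and CDC25A at -1.35 on the rapamycin axis.

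Adding rapamycin to JQ1 gave a median member change of -0.26, with 36 of 43 negative; it was -0.09 without JQ1 replicate 1 and -0.50 without JQ1 replicate 2. No member was called, beside 0% of all genes without the block and 0.0157% with it; at an unadjusted p under 0.05 it was 3 of 43 members beside 8.28% of all genes. The 4 members with the smallest p were POLD1 at -0.53, UHRF1 at -1.39, POLE2 at -1.22 and CDC25A at -1.06. Without JQ1 replicate 1 UHRF1 stood at -0.61, POLE2 at -0.65 and CDC25A at -0.58, and without JQ1 replicate 2 at -2.17, -1.79 and -1.54 in the same order. Adding JQ1 to rapamycin gave a median of -0.09, with 27 negative, and medians of -0.00 without rapamycin replicate 1 and -0.33 without rapamycin replicate 2. With the block, E2F2, GINS3 and POLE2 fell, beside 7.05% of all genes, and CCNE1 rose, beside 4.27%. SLBP at 0.66, POLE at 0.67 and PCNA at 0.53, next to E2F2 by p, did not pass.

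The interaction (the change with JQ1 on rapamycin arrays less that on arrays without rapamycin) had a median of 0.07 over the members, with -0.16 without JQ1 replicate 2 and 0.29 without JQ1 replicate 1 as its extremes. No member was called, beside 0% of all genes without the block and 0.00784% with it. At an unadjusted p under 0.05 it was 2 of 43 members, beside 3.51% of all genes. The 4 members with the smallest p were POLD1 at -0.91 (SE 0.31), E2F2 at 1.08 (SE 0.39), CHAF1A at 0.78 (SE 0.39) and PCNA at 0.38 (SE 0.25), with adjusted p of 0.999 each. With 2 arrays per group, a p that misses the threshold does not show that the drugs add up.

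The members also differed between replicates. In the fit with the block, 12 were lower in replicate 2 than in replicate 1, beside 4.38% of all genes, and none was higher, beside 8.1%. At an unadjusted p under 0.05 it was 20 of 43 members in either direction beside 28.8% of all genes. The 12 included CDC45, MCM10, RFC5, POLA1 and RRM1, none of which was called for a drug under the value table's names. The median member difference was -0.32 against 0.03 over all genes, and 22 of 43 members were lower in replicate 2 in all 4 groups. Under the header's names, the 4 arrays of replicate 2 become the arrays with rapamycin and the 4 of replicate 1 those without it. With those names 6 members fell in the combination against DMSO, CDC25A, ORC1, MCM10, RFC5, FEN1 and RRM2, beside 0.666% of all genes. MCM10, CDC45 and POLA1 fell with rapamycin averaged over JQ1, beside 0.901%. None was called with JQ1 against DMSO, beside 0.00784%, with rapamycin against DMSO, beside 0.337%, or with JQ1 averaged over rapamycin, beside 0.0784%; at an unadjusted p under 0.05 it was 9 of 43 beside 8.26% of all genes, 11 beside 10.7%, and 14 beside 11.8%, in the same order. The median member change was -0.67 in the combination, -0.29 under JQ1 and -0.37 under rapamycin with those names. The sign of 8 of 43 members turned in the combination, of 16 under JQ1, of 9 under rapamycin, of 17 with JQ1 averaged and of 8 with rapamycin averaged. Among members called with the block, the combination's changes with those names were -2.05 for CDC25A, -1.16 for ORC1, -1.08 for FEN1, -0.74 for MCM2, -0.66 for MCM6, -1.07 for GINS2, -1.56 for POLE2, -1.94 for UHRF1, -0.94 for POLA2 and -0.73 for RFC3. All 10 kept their negative sign there. In the value table's names, that comparison sets rapamycin replicate 2 and combination replicate 2 against DMSO replicate 1 and JQ1 replicate 1. It shares combination replicate 2 and DMSO replicate 1 with the comparison that picked these members. It also holds the replicate difference, negative for 39 of 43 members, so that the kept sign is no separate support. The header's arrays with JQ1 are the 4 that the value table places under rapamycin or the combination. JQ1 averaged under the header's names thus compares the value table's arrays with and without rapamycin. CDC25A stood at -1.29 there, beside -1.35 for rapamycin averaged with the value table's names. CDC25A under JQ1 was -1.30 with the header's names, against -0.16 with the value table's. With JQ1 averaged, the signs of TK1 (-0.27), GINS4 (-0.27) and POLE (-0.12) turned.

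**Figure D4:**
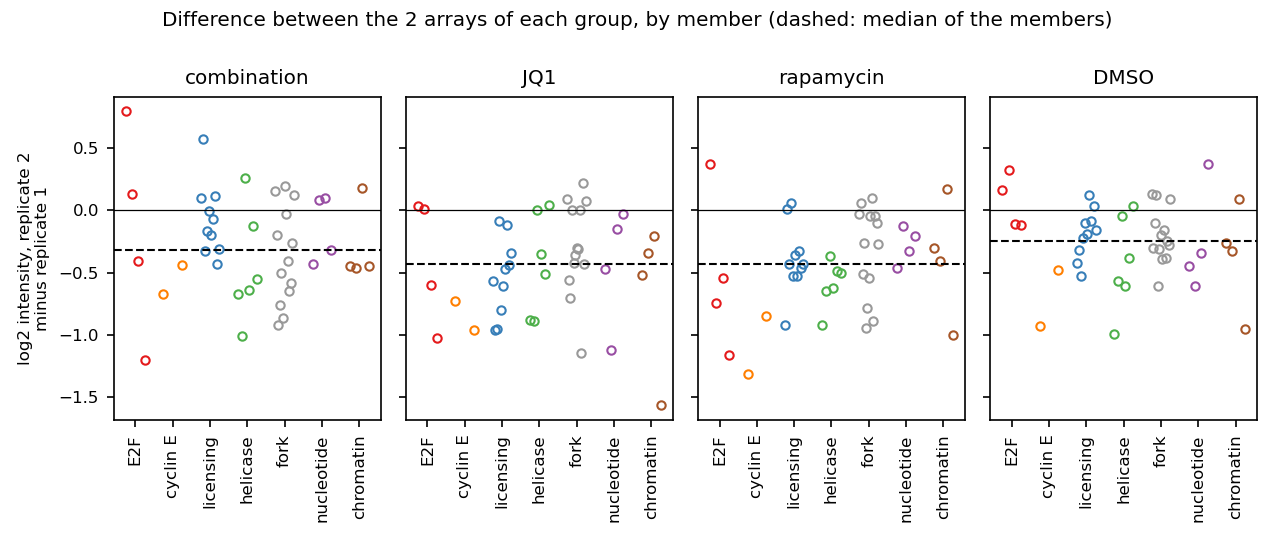
Log2 intensity in replicate 2 minus replicate 1 for each member, by role (columns) and group (panels); dashed lines are member medians. The medians are -0.32 in the combination, -0.43 under JQ1, -0.43 under rapamycin and -0.25 under DMSO.

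Of 24 upstream regulators of G1 tested out of 26 listed, 3 rose in the combination, beside 2.93% of all genes, and 1 fell, beside the 4.25% given above. Their median log2 change was -0.21 in the combination, -0.11 under JQ1 and 0.03 under rapamycin. CDKN1A, the p21 inhibitor of cyclin-dependent kinases, read 13677 and 11901 in the combination, 10544 and 12225 under JQ1, 4019 and 3365 under rapamycin, and 1850 and 1738 under DMSO. It rose by 2.83 in the combination (SE 0.20, adjusted p 0.00403) and by 2.66 under JQ1 (SE 0.20, adjusted p 0.00881). CDKN2D, an inhibitor of CDK4 and CDK6, rose by 2.04 in the combination (SE 0.36, adjusted p 0.0237). LIN37, a subunit of the DREAM complex that represses E2F targets, read 79.8 and 78.8 in the combination and 21.3 and 20 under DMSO (adjusted p 0.0168), at or near the lowest value of the table, so that the size of its rise is not given. E2F5, a repressive E2F, fell by 1.65 in the combination (SE 0.21, adjusted p 0.0107) and by 1.58 under JQ1 (SE 0.21, adjusted p 0.0187). LIN9, another DREAM subunit, fell by 1.17 with JQ1 averaged over rapamycin. The calls of CDKN1A and E2F5 under JQ1, and that of LIN9, were each lost in some of the fits that leave out 1 array. With 1 array left out, the combination's call was lost in 8 of 8 fits for CDKN2D, 4 for LIN37, 3 for E2F5 and 1 for CDKN1A. None of these genes was called under the header's names, with CDKN1A at 0.37, CDKN2D at 0.78, LIN37 at 0.62 and E2F5 at -0.41 in the combination and LIN9 at 0.00 with JQ1 averaged.

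Of 37 tested out of 43 other replication and fork genes, 1 fell in the combination, beside 4.25% of all genes. It was MCMBP, a binding partner of MCM subunits, which read 31.6 and 20 in the combination and 95.3 and 69.0 under DMSO (adjusted p 0.0462), with 1 combination array at the lowest value of the table, so that the size of its fall is not given. ASF1B, a histone chaperone, rose by 1.41 under JQ1 (SE 0.24, adjusted p 0.0351). CDC7, the kinase that fires origins, and ORC5, TOPBP1 and BRCA1 fell by 0.79 to 1.43 with JQ1 averaged over rapamycin, 4 of 37 beside 7.38% of all genes. The 37 genes had a median log2 change of -0.13 in the combination, -0.07 under JQ1 and -0.20 under rapamycin. Of 40 genes of G2/M and mitosis, 3 fell in the combination, again beside 4.25% of all genes: AURKA by 1.85, BUB1B by 1.51 and PLK1 by 1.06. The 40 genes had a median log2 change of -0.35 in the combination and -0.19 under JQ1, each with 31 negative. The members stood at -0.44 and -0.17. Under rapamycin the median of the 40 was 0.03, with 19 negative, against -0.31 for the members. With JQ1 averaged over rapamycin, 7 of the 40 fell, beside 7.38% of all genes. With 1 array left out, the combination's call was lost in 8 of 8 fits for MCMBP and PLK1, in 6 for BUB1B and in 4 for AURKA, that of ASF1B under JQ1 in 8, and those of CDC7, ORC5, TOPBP1 and BRCA1 with JQ1 averaged in 7 or 8. No gene named in this list or the replication list was called under the header's names, with MCMBP at -0.85, AURKA at -0.44, BUB1B at -0.56 and PLK1 at -0.36 in the combination and ASF1B at -0.55 under JQ1, where its sign turns, as does that of ORC5 (0.16) with JQ1 averaged. With the block the counts in the combination were 9 lower and 1 higher of 37 for the replication genes, 9 lower and 1 higher of 40 for G2/M, and 6 lower and 3 higher of 24 for the upstream regulators, beside 11.2% of all genes lower and 7.77% higher.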

How the data were processed

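Biotin-labelled cRNA from 8 RNA samples, 2 per group, was hybridised to Illumina arrays, per the labels' protocols. The authors deposited a value table of normalized linear intensity with a floor of 20 and a table of non-normalized intensity, 28.3% to 30.3% of which lay below 0 per array. How they were normalized, and with what software, is not stated in the labels, and no detection p-values were used. From 55.7% to 58.6% of the value table's probes were at the floor on each array.

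Here log2 values were taken of the authors' deposited intensity. Of 47304 probes, 30102 have 1 symbol in the platform annotation, 8 several and 17194 none; 30063 symbols were updated through gene identifiers to RefSeq. A probe had to exceed 20 on 2 arrays (23860 probes, 17016 with a symbol), and each gene was read from its brightest probe by mean log2 intensity. For 15 members, 17 other probes passed; they had the sign of the probe used in 15 of 17 in the combination, 11 of 17 under JQ1 and 15 of 17 under rapamycin. One mean per group was fitted to the 8 arrays with limma 3.58.1 in R 4.3.3 (4 residual and 2.92 prior degrees of freedom), p-values were Benjamini-Hochberg adjusted over 12759 genes, and the script was tested on simulated data. The SD of a single array over the members was 0.35 (combination), 0.43 (JQ1), 0.40 (rapamycin) and 0.28 (DMSO) on the log2 scale, and the number of arrays limits the precision.

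Replicate differences (2 minus 1) correlated at 0.423 to 0.549 over all genes in each of the 6 pairs of groups under the value table's names. The header's names split the same arrays by rapamycin. A pairing by replicate number and that split cannot be told apart here, and calls with the block rest on the value table's names. The fit with the replicate numbers as a block is given where it changed a call. The members and lists were chosen with earlier results of these data known. Named with full values are members called in any comparison and the 4 with the smallest p in each; members called with the block only, and members whose probes disagree, were named after their values were seen. Alternatives were other filters, an offset of 50, the mean of probes, median centring, a trended variance, the arrays compared alone, each array left out, and the non-normalized table under matched and header names. For the non-normalized table, values below 0 were set to 0, an offset of 50 was added, and the log2 values were quantile normalized.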

Additional observations from a re-analysis of the deposited data

How the results depend on the processing

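With 2 arrays per group, calls rested on the variance shared over all 8 arrays, and the counts of called members moved with the settings. With the replicate block they were 14 for the combination against DMSO, 5 for JQ1, 1 for rapamycin, 4 for the combination against rapamycin, 8 for rapamycin averaged over JQ1 and 19 for JQ1 averaged over rapamycin. Fitted on the arrays compared alone, they were 0 for the combination, for JQ1 and for the combination against rapamycin. With no filter, 1 was called in the combination and 0 against rapamycin. Median centring left 1 in the combination, and a trended variance gave 7 there and 6 for JQ1 averaged. For JQ1 averaged, requiring intensity above 20 on all arrays gave 5, an offset of 50 gave 9, and the non-normalized signals with matched arrays gave 6. Median centring also moved the split of all genes called higher and lower in the combination to 476 and 444 (374 and 542 without it), under JQ1 to 188 and 200 (135 and 226 without it), and for JQ1 averaged to 698 and 753 (557 and 941 without it). Apart from the block and median centring, no share of all genes called is given for the settings of this paragraph, nor for the fits that leave out 1 array. Those counts therefore do not tell a change in the members from a change over all genes. The causes were not tested.

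Under the header's names, 0 members were called for JQ1, for the combination against rapamycin and for JQ1 averaged, and 3 for rapamycin averaged. Among members called without the block or among the 4 with the smallest p of a comparison, signs turned for PRIM1 (0.17) and RFC4 (0.48) under JQ1, for PCNA (-0.31), POLE (-0.12) and SLBP (-0.29) in the combination against rapamycin, for E2F2 (-0.21) and POLD1 (0.14) in the interaction, and for RFC4 (0.20) and SLBP (-0.37) with JQ1 averaged. Signs also turned for CCNE1 (-1.06) and POLD1 (-0.25) under JQ1, for E2F7 (-0.36) in the combination, and for CCNE1 (-0.94), TK1 (-0.27), GINS4 (-0.27) and POLE (-0.12) with JQ1 averaged. In these fits both the grouping of the arrays and the processing of the signals differ from the value table's. On the same split of the arrays, LIN37 stood at 0.72 with JQ1 averaged under the header's names. It stood at 1.27 with rapamycin averaged under the value table's.

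Leaving out 1 array at a time gave 0 to 2 called members for the combination, 0 to 1 for JQ1, 1 to 2 for JQ1 averaged, and 0 for the other comparisons. The median member change under JQ1 was 0.01 without DMSO replicate 1 and 0.11 without JQ1 replicate 2, and -0.46 without JQ1 replicate 1. RFC4 with JQ1 averaged kept its call only without combination replicate 1, and SLBP lost it without any array (adjusted p 0.055 to 0.09). E2F2 with JQ1 averaged kept its call in all 8, at -2.55 to -2.17. E2F2 against rapamycin lost it in all 8, at -2.19 to -1.45.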
